A study of Mus musculus with 60 samples.

Results

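The 10 core genes of the circadian clock, Arntl, Clock, Per1, Per2, Per3, Cry1, Cry2, Nr1d1, Nr1d2 and Dbp, were followed through 60 RNA sequencing libraries of microglia, the macrophages of the brain, from mice. They were picked by name from the 22869 gene symbols of the table of counts, with 1 transcript row each, and all 10 were found. The series asked how gene expression in microglia of C57BL/6N mice differs between the sexes during development and after an inflammatory challenge. Every library came from that strain, and no allele or transgene is named. The libraries of embryonic day 18 (E18, 4 male and 3 female by title), postnatal day 4 (P4, 4 and 4) and P14 (10 and 10) came from untreated animals. At P60 mice had received lipopolysaccharide (LPS), which mimics a bacterial infection (7 male and 6 female), or saline (5 and 7). The labels used here give no dose, no time after injection, no hour of day, and nothing on how many animals a library holds. P-values therefore measure only the spread between these libraries.

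In mammals the clock is a loop of transcription and repression that runs in most cells. ARNTL (also called BMAL1) and CLOCK bind E-box sequences as a pair and switch on the Per, Cry, Nr1d and Dbp genes. PER and CRY proteins return to block that pair, while the nuclear receptors REV-ERB alpha and beta, made by Nr1d1 and Nr1d2, repress Arntl, so that Arntl transcripts peak at the opposite time of day to those of Nr1d1 and Dbp. Per1 is also an early response gene, known to be raised by glucocorticoids and by signals acting through the cyclic AMP response element. Clock transcripts thus depend on the hour at which tissue is taken, and in microglia the clock is known to influence the response to LPS.

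Total counts per library ran from 802016 to 3497454, and the P60 LPS libraries were the shallowest as a group, with a median of 970080 counts, against 2092799 for P60 saline. The 60 libraries were collected on 17 dates, and 0 dates held more than 1 stage or treatment, so that stage or treatment and collection date cannot be told apart. The 6 microglial markers summed to between 14838 and 28065 CPM (counts divided by the library total, times 1000000) in P60 LPS libraries and between 18283 and 37528 CPM in P60 saline libraries. At E18 they summed to between 1893 and 4611 CPM, where 4 neuronal markers summed to between 551 and 1678 CPM, against at most 99.3 CPM at any later stage. The part of other cells in the results was not tested, and in whole-sample RNA fewer cells of a type and less RNA per cell cannot be told apart. Male E18 libraries 3 and 4 and female saline library 6 stood apart: Ttr, the main transcript of the choroid plexus, took over 10% of their counts. Choroid plexus transcripts were not confined to these libraries. The 3 markers, Ttr among them, summed to medians of 28084 CPM at E18, 30272 at P4 and 17804 at P14. At P60 the medians were 24302 CPM with LPS and 32451 with saline. At E18 the lowest sum, 6636 CPM, was above the highest microglial sum. Male E18 library 4 had 0 counts of 4 Y-linked genes, the only 1 of the 30 libraries titled male without any. Title and sex characteristic disagreed in 10 libraries, so the sex results are given by title and, where it mattered, by characteristic.

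The promoters of 9 of the 10 genes were in the RefSeq table used (build GRCm38.p6, windows of 250 bases before to 50 after a transcription start), and Per2 was not. Those of Per1, Cry1, Per3 and Arntl are shown because they hold a motif of the loop in full. Capitals mark E-boxes (CACGTG, in 7.15% of all 32851 windows) and the variant CACGTT (4.68%), D-boxes (TTATGTAA or TTACGTAA, 1.06%) and the element bound by ROR and REV-ERB (TAGGTCA or AAGGTCA, 7.16%), read on both strands. E-box and variant are distinct letters and did not overlap.
Per1, chr11:69098699-69098998, plus strand: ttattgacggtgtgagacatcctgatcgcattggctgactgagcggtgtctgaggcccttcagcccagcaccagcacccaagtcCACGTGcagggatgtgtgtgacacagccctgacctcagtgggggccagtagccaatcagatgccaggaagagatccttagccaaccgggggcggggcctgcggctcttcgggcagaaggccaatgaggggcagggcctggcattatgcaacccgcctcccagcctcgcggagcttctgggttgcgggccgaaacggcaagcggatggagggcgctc
Cry1, chr10:85185005-85185304, minus strand: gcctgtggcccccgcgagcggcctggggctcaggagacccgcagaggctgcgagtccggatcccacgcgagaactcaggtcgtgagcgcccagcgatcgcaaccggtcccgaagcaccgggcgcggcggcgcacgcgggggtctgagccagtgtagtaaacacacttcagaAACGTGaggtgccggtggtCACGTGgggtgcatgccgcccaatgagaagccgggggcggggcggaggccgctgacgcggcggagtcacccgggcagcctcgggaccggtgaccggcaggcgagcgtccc
Per3, chr4:151044616-151044915, minus strand: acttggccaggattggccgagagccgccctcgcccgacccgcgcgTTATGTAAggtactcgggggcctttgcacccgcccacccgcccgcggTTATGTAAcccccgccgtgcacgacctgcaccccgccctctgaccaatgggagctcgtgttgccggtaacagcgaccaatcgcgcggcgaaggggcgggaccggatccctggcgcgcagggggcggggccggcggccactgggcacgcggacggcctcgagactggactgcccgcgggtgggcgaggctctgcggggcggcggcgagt
Arntl, chr7:113207261-113207560, plus strand: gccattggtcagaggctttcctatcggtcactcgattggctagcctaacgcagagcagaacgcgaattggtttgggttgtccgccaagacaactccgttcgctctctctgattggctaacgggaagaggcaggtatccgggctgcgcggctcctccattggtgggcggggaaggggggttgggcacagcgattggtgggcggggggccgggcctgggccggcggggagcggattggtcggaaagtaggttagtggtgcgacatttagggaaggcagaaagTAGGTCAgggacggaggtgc
The first of the 2 Per1 windows had its E-box 166 bases before the start, and the second held none of these motifs. The Cry1 window had an E-box 60 bases and a variant 79 bases before its start. The Per3 window held 2 D-boxes, the sites of DBP and its relatives, 205 and 158 bases before the start. The second of the Arntl windows held the REV-ERB element 31 bases after its start, the variant alone was found once each in Nr1d1 and Cry2, and in the Nr1d2, Dbp and Clock windows these letters were not found. The cyclic AMP response element TGACGTCA (1.79% of windows) was in no window of the 9 genes searched.

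Per kilobase of transcript, Per1 had the highest mean level of the 10 genes in every group. It reached 20.1 ± 7.68 CPM per kb at E18 (SD, n = 7), 28.97 ± 3.15 at P4 (n = 8), 83.0 ± 28.9 at P14 (n = 20), 77.6 ± 33.4 at P60 with LPS (n = 13) and 46.8 ± 20.3 with saline (n = 12). At E18 it was level with Nr1d1, at 20.1 ± 7.16 CPM per kb (SD, n = 7), and from P4 on Nr1d2 ranked second. Per2 and Per3 held the last places in all 5 groups, at 1.63 ± 0.561 and 1.76 ± 0.772 CPM per kb in P60 saline libraries (SD, n = 12), less than their own spread apart. Clock ranked next at P4, with 13.4 ± 1.66 CPM per kb (SD, n = 8), and in both P60 groups, with 14.9 ± 2.96 with LPS (n = 13) and 18.6 ± 3.70 with saline (n = 12). In the LPS libraries the 4 genes from Nr1d1, at 10.9 ± 5.22 CPM per kb, to Cry2, at 3.95 ± 1.73, overlapped in their ranges (SD, n = 13).

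**Figure D1:**
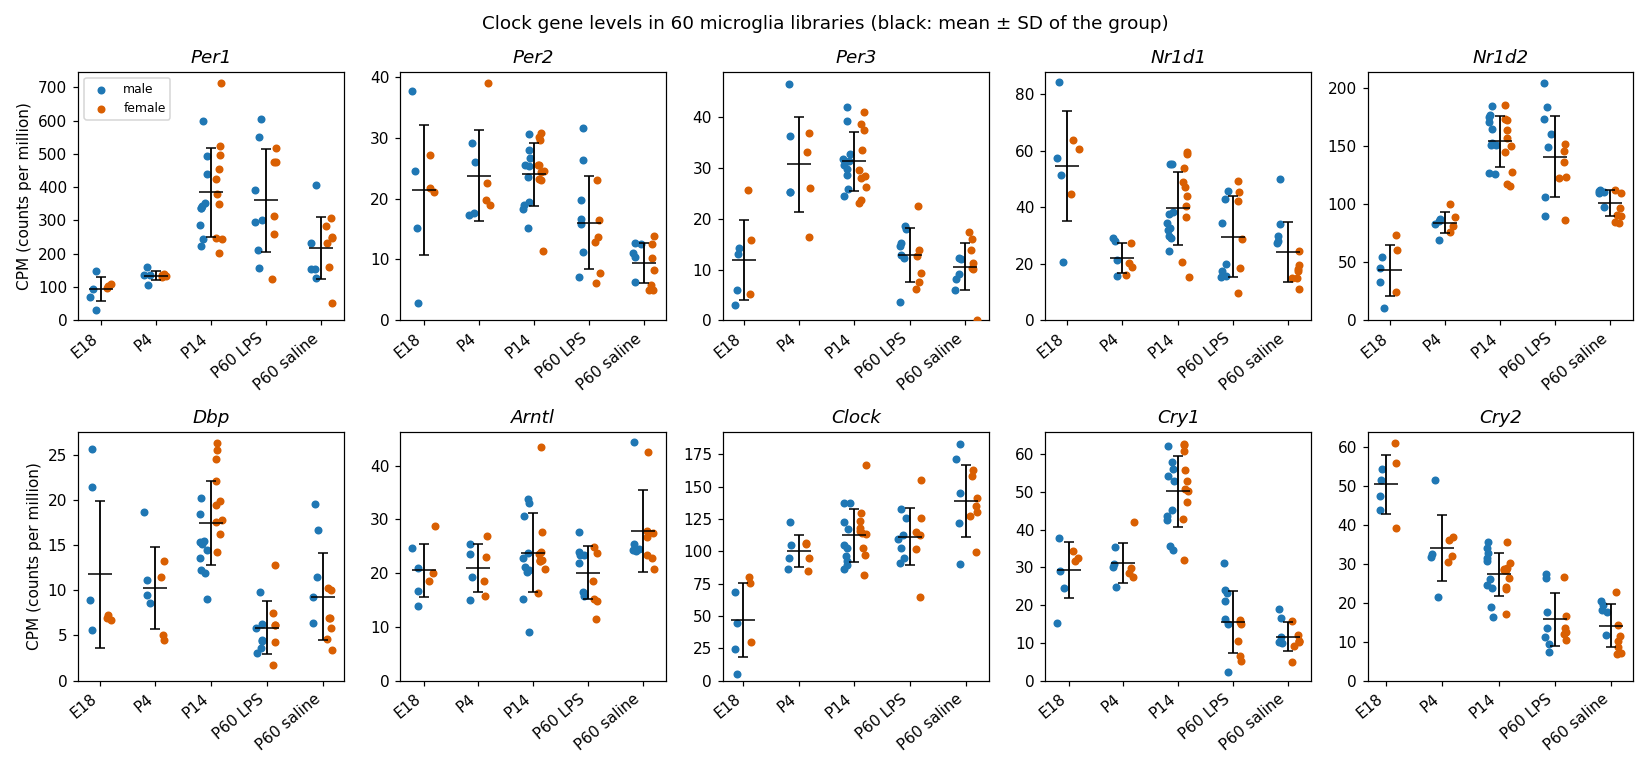
Level of each clock gene in CPM (linear axes from 0) in every library, by group, with males in blue left of females in orange and the group mean ± SD in black. Cry1 peaks at P14, where it averaged 50.2 CPM, and its P14 libraries all lie above those of P60 saline, whereas the Arntl groups overlap throughout.

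The first step, P4 against E18, brought a rise of Clock, Per3 and Nr1d2 and a fall of Nr1d1 and Cry2. These 5 of 10 genes passed the test (edgeR quasi-likelihood, Benjamini-Hochberg adjusted p under 0.05), while 48.3% of the 13853 genes tested did (25.5% higher and 22.7% lower), so the share among the clock genes was near the background. The members' median log2 fold change was 0.21, against 0.03 over all genes tested.

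Among the activators, Clock had 85.0, 99.9 and 122 CPM (lowest, median and highest) at P4, against 5.11, 44.7 and 80.0 CPM at E18. Every P4 library was above every E18 library, as for 7.38% of all genes tested, and 0 of the 10 lay below in the same way (6.34% of all genes). The log2 fold change was 1.22 ± 0.22 (SE, edgeR adjusted p 1.1e-05), and it was 0.84 without the 3 libraries rich in Ttr. Arntl, its partner, had 14.96, 21.1 and 26.9 CPM at P4 and 13.9, 20.1 and 28.8 CPM at E18, ranges that overlapped nearly in full, with a log2 fold change of 0.09 ± 0.20.

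Of the repressors, Per3 had 16.5, 29.5 and 46.6 CPM at P4 and 2.92, 13.05 and 25.6 CPM at E18, and rose by 1.43 ± 0.27 on the log2 scale (edgeR adjusted p 3.5e-05). Cry2, the second cryptochrome, had 21.5, 32.3 and 51.4 CPM at P4, against 39.1, 51.4 and 61.1 CPM at E18, and fell by 0.50 ± 0.18 (edgeR adjusted p 0.022); without male P4 library 4 its adjusted p was 0.061. Both genes overlapped between stages by library. Per1 (log2 fold change 0.64 ± 0.29, edgeR adjusted p 0.063), Per2 (0.25 ± 0.24) and Cry1 (0.16 ± 0.18) were not called, although Per1 was called at adjusted p 0.027 without male E18 library 2 and 0.047 without male saline library 2. Without the 3 Ttr-rich libraries the value of Per2 was -0.11.

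The 2 REV-ERB genes moved in opposite directions. Nr1d1 had 15.6, 20.8 and 29.1 CPM at P4, against 20.5, 57.3 and 84.2 CPM at E18, and fell by 1.203 ± 0.22 on the log2 scale (edgeR adjusted p 1.4e-05). All E18 libraries but male library 4 were above all P4 libraries. Nr1d2 had 69.3, 84.1 and 99.7 CPM at P4 and 10.96, 44.6 and 73.4 CPM at E18, and rose by 1.05 ± 0.17 (edgeR adjusted p 3.6e-06), with 1 E18 library inside the P4 range. Dbp, a transcription factor that carries the rhythm to output genes, had 4.54, 10.3 and 18.7 CPM at P4 and 5.59, 7.26 and 25.6 CPM at E18. Its log2 fold change of -0.0043 ± 0.42 rested on the 2 Ttr-rich male E18 libraries at 21.4 and 25.6 CPM, and without libraries of that kind it was 0.61 (edgeR adjusted p 0.059).

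The step to P14 went one way: Per1, Nr1d1, Nr1d2, Dbp, Cry1, Arntl and Clock rose over P4, and none of the 10 genes fell. These 7 of 10 genes compare with 41.5% of all genes called, made up of 20.6% higher and 20.8% lower, and the members' median log2 fold change was 0.73, against -0.01 over all genes tested. These folds use TMM scaling, whereas CPM uses library totals; with totals alone the median gene at P14 lay at -0.30, so CPM differences at this step read smaller than the folds.

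Per1 made the largest move of the 10, with 202, 351 and 712 CPM at P14, against 106, 135 and 161 CPM at P4. Its groups did not overlap by library, as for 1.55% of all genes in that direction and 6.11% in either, and the log2 fold change was 1.83 ± 0.25 (edgeR adjusted p 1.3e-07). Cry1 had 31.97, 51.9 and 62.9 CPM at P14 and 24.9, 29.97 and 42.1 CPM at P4, with a fold change of 0.99 ± 0.15 on the log2 scale (edgeR adjusted p 1.0e-06) and some overlap. Per2 (log2 fold change 0.33 ± 0.19), Per3 (0.32 ± 0.21) and Cry2 (-0.02 ± 0.15) were not called.

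Nr1d2 had 116, 155 and 185 CPM at P14, against 69.3, 84.1 and 99.7 CPM at P4, and was the other gene whose libraries did not overlap (log2 fold change 1.18 ± 0.14, edgeR adjusted p 7.6e-09). Nr1d1 had 15.4, 38.04 and 59.5 CPM at P14 and 15.6, 20.8 and 29.1 CPM at P4. It rose by 1.16 ± 0.19 on the log2 scale, by nearly as much as it had fallen in the step before. Dbp had 8.98, 16.9 and 26.3 CPM at P14, against 4.54, 10.3 and 18.7 CPM at P4, and rose by 1.04 ± 0.23 (edgeR adjusted p 0.00035).

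The activators changed least among the called genes, Arntl by 0.45 ± 0.16 (edgeR adjusted p 0.022) and Clock by 0.46 ± 0.17 (adjusted p 0.026) on the log2 scale. Arntl had 9.05, 22.4 and 43.4 CPM at P14 and 14.96, 21.1 and 26.9 CPM at P4, and Clock had 81.7, 114 and 166 CPM at P14 and 85.0, 99.9 and 122 CPM at P4. Both calls ended with library totals in place of TMM, at log2 fold changes of 0.16 (edgeR adjusted p 0.45) and 0.17 (0.47). They also ended with DESeq2, with its size factors, without the filter on low counts and with date as a random block. The Arntl call was lost without female P4 library 3 (edgeR adjusted p 0.065), male P4 library 3 (0.072) or male P4 library 4 (0.059), and the Clock call without female P4 library 4 (0.087) or male P4 library 3 (0.096).

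**Figure D2:**
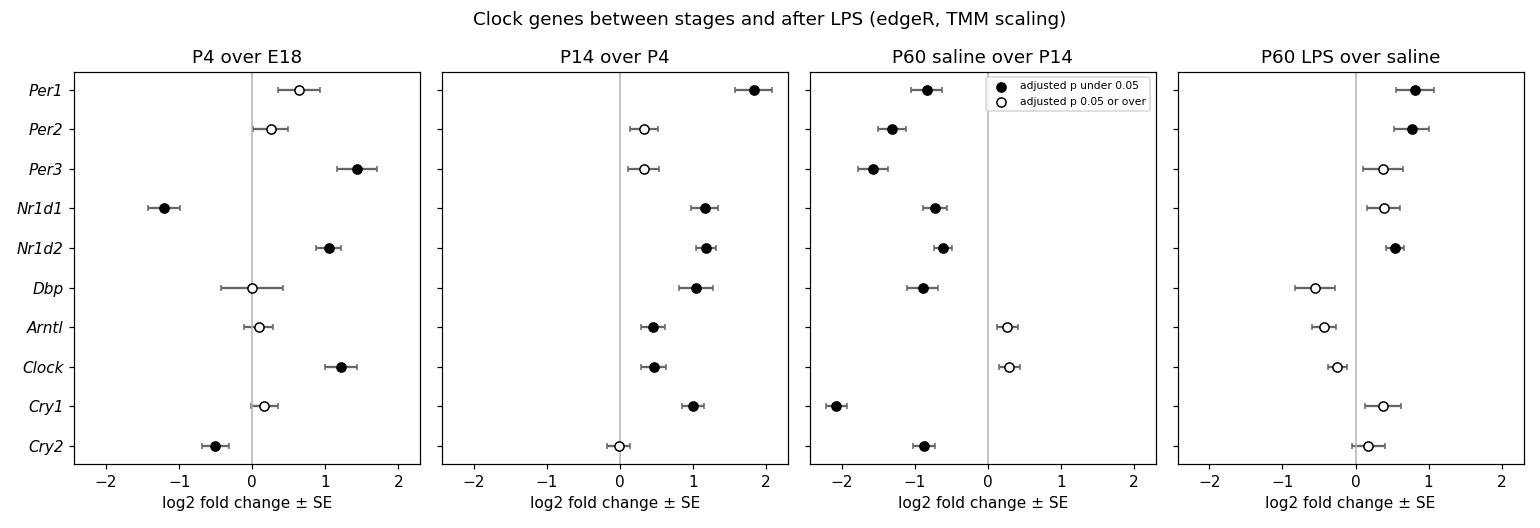
Log2 fold change ± SE of each clock gene at 3 developmental steps and for LPS over saline at P60 (edgeR; filled points have an adjusted p under 0.05, open points do not; positive values are higher in the first-named group). At P14 over P4 the 7 filled points lie right of 0, and at P60 saline over P14 the 8 filled points lie left of it, with Arntl and Clock open on the right.

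Every repressor and output gene, 8 of 10 genes, was lower in P60 saline libraries than at P14, while Arntl and Clock were not called. Over all genes tested 44.1% were called, 25.7% lower and 18.5% higher, and the median log2 fold change was -0.85 over the members and -0.06 over all genes. Markers of other cells moved at the same step. The 3 astrocyte markers summed to 2.28 to 62.4 CPM in P60 saline libraries, against 18.1 to 657 CPM at P14, and the 3 oligodendrocyte lineage markers to 0 to 100.2 CPM, against 14.5 to 283 CPM at P14. The 6 microglial markers summed to 18283 to 37528 CPM in P60 saline libraries and 11338 to 26786 CPM at P14, and none of the astrocyte or oligodendrocyte markers was at 0 in all libraries. Their part in the results was not tested.

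Cry1 fell furthest. It had 4.99, 10.4 and 18.9 CPM at P60 with saline, against 31.97, 51.9 and 62.9 CPM at P14, a fall of over 2 units on the log2 scale (log2 fold change -2.07 ± 0.15, edgeR adjusted p 7.3e-15). Per3, with 0, 10.8 and 17.4 CPM at P60 with saline and 23.02, 30.2 and 42.1 CPM at P14, fell by 1.57 ± 0.21 on the log2 scale. In female saline library 6, where Per3 had 0 of 802016 counts, the limit that a count of 0 allows is 3.74 CPM, for counting error only. Nr1d2 had 84.2, 104 and 112 CPM at P60 with saline, against 116, 155 and 185 CPM at P14, and fell by 0.61 ± 0.12. These 3 genes did not overlap by library, as for 1.81% of all genes in that direction.

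The other 5 genes overlapped to some degree. Per2 had 4.99, 10.3 and 13.9 CPM at P60 with saline, against 11.4, 24.9 and 30.8 CPM at P14. Its only P14 library inside the P60 range was female library 6. Per2 fell by 1.31 ± 0.19 on the log2 scale, Dbp by 0.89 ± 0.21, Cry2 by 0.87 ± 0.15, Per1 by 0.84 ± 0.21 and Nr1d1 by 0.72 ± 0.16. The edgeR adjusted p-values lay between 2.5e-07 (Per2) and 0.0010 (Per1). Averaged by collection date, each of the 8 genes was lower on all 3 saline dates than on all 3 P14 dates, as were 23.4% of all genes, but with 3 dates against 3 an exact two-sided permutation test over dates cannot go below 0.1. With date as a random block 7 of the 8 calls held, and Nr1d1 had an adjusted p of 0.059 (limma).

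Arntl had 20.8, 24.9 and 44.5 CPM at P60 with saline, against 9.05, 22.4 and 43.4 CPM at P14, a log2 fold change of 0.27 ± 0.14 (edgeR adjusted p 0.12). Clock had 90.1, 138 and 183 CPM at P60 with saline and 81.7, 114 and 166 CPM at P14, a fold change of 0.30 ± 0.15 on the log2 scale (edgeR adjusted p 0.095). Both positive values passed with DESeq2, at adjusted p 0.042 and 0.027, and that of Clock without the Ttr-rich libraries (edgeR adjusted p 0.014). The Clock call also appeared when any of 11 of 27 single libraries was left out, with edgeR adjusted p-values between 0.012 and 0.041. These were female E18 libraries 1 to 3, male E18 libraries 3 and 4, male P4 libraries 1 and 3, female P4 library 4, and female saline libraries 2, 4 and 5. For Arntl the same held for male E18 library 4, female saline libraries 4 and 5 and male saline library 3, with adjusted p-values between 0.039 and 0.045.

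Set against E18, adult saline microglia had 4 of the 10 genes higher and 4 lower, where 66.3% of all genes were called, 31.4% higher and 34.8% lower. Clock (log2 fold change 1.98 ± 0.21), Per1 (1.63 ± 0.28), Nr1d2 (1.61 ± 0.17) and Arntl (0.81 ± 0.19) were higher. Cry2 (-1.40 ± 0.18), Cry1 (-0.91 ± 0.18), Nr1d1 (-0.76 ± 0.20) and Per2 (-0.73 ± 0.23) were lower, with edgeR adjusted p-values of at most 0.0046. Cry2 was in decline at the first and last steps and had 6.83, 13.04 and 22.7 CPM at P60 with saline, against 39.1, 51.4 and 61.1 CPM at E18, with no overlap, as for 13.4% of all genes in that direction. Per3 (0.19 ± 0.27) and Dbp (0.14 ± 0.27) were not called, and with library totals in place of TMM they were at -0.20 and -0.16. Dbp was called higher, at 0.71, without the Ttr-rich libraries (edgeR adjusted p 0.015). Clock and Nr1d2 were higher in every P60 saline library than in every E18 library, as for 5.98% of all genes. The P60 saline libraries also serve the comparison with LPS, so that the 2 comparisons share them.

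A wider list of 30 clock-related genes gave a mixed account, and the 28 of them that were tested were called in both directions at each step. The genes named are among those with the smallest p in each direction, which are not always those with the largest change. At P4 over E18, 7 rose and 1 fell, so that 8 of 28 were called, a smaller share than the 48.3% over all genes. Among the rises were Nampt (log2 fold change 0.91 ± 0.17), which makes a precursor of NAD, the deubiquitinase Usp2 (1.21 ± 0.24) and the Dbp relative Hlf (1.02 ± 0.25), and Nono (-0.64 ± 0.12), a partner of PER, fell. At P14 over P4, 10 rose and 7 fell, where 41.5% of all genes were called. Bhlhe41 (log2 fold change 2.76 ± 0.27) and Ciart, listed as Gm129 (2.83 ± 0.34), both repressors of the ARNTL and CLOCK pair, rose with Usp2 (1.63 ± 0.20) and Fbxw11 (0.96 ± 0.13), part of a ligase for PER. Timeless (-1.42 ± 0.19) and Tipin (-1.18 ± 0.16), both of the DNA replication fork, Rorb (-2.21 ± 0.45) and Cipc, listed as 2310044G17Rik (-0.71 ± 0.15), had the smallest p among the falls. At P60 saline over P14, 14 fell and 6 rose, where 44.1% of all genes were called. Wee1, a cell cycle kinase gene (log2 fold change -1.82 ± 0.18), Noct, listed as Ccrn4l (-1.62 ± 0.18), Fbxw11 (-1.08 ± 0.11) and Nampt (-0.98 ± 0.12) had the smallest p among the falls. The Clock relative Npas2 (1.63 ± 0.35), Cipc (0.50 ± 0.14), the AMP kinase gene Prkaa2 (0.83 ± 0.29) and Hlf (0.47 ± 0.17) had the smallest p among the rises.

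Between LPS and saline at P60, 3 of the 10 genes were called, Per1, Per2 and Nr1d2, all higher with LPS. Over all 10538 genes tested 14.4% were called, 10.5% higher and 3.95% lower. Treatment and collection date cannot be told apart here. The members' median log2 fold change was 0.38, against -0.07 over all genes tested. Nr1d2 had 86.6, 145 and 204 CPM with LPS and 84.2, 104 and 112 CPM with saline. It rose by 0.54 ± 0.12 on the log2 scale (edgeR adjusted p 0.0016), and its adjusted p stayed between 5.7e-06 and 0.043 over 40 alternatives. These do not include the exact permutation test over date means, where its p was 0.2 and the smallest possible was 0.1.

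Per1 had 125, 312 and 604 CPM with LPS, against 51.1, 232 and 405 CPM with saline, a log2 fold change of 0.81 ± 0.26 (edgeR adjusted p 0.032). Per2 had 6.19, 15.8 and 31.5 CPM with LPS and 4.99, 10.3 and 13.9 CPM with saline, a log2 fold change of 0.77 ± 0.24 (adjusted p 0.032). In all 3 genes the groups overlapped by library and by date mean. The Per1 call was lost without any of 8 of 25 libraries, at edgeR adjusted p-values between 0.054 and 0.078 (male LPS 6 and 7, female LPS 3, 5 and 6, male saline 3, 4 and 5). The Per2 call was lost without any of 6, at 0.051 to 0.088 (male LPS 3, female LPS 5, male saline 3, 4 and 5, female saline 3). Without the LPS libraries of 10 April the log2 fold change of Per1 was 0.48, and without the saline libraries of 3 April it was 0.52, neither called (edgeR adjusted p 0.32 and 0.24). Both calls also ended with library totals in place of TMM (edgeR adjusted p 0.057 for Per1 and 0.054 for Per2) and with date as a random block (limma adjusted p 0.14 and 0.28).

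The other 7 genes were not called, and the signs of the activators were the opposite of those of the Per genes. Arntl had 11.4, 21.9 and 27.7 CPM with LPS and 20.8, 24.9 and 44.5 CPM with saline, with a log2 fold change of -0.43 ± 0.16 (edgeR adjusted p 0.070). It was called with library totals in place of TMM (-0.52, adjusted p 0.026) and with its transcript rows summed (-0.46, adjusted p 0.040). Mean log2 CPM was lower on each LPS date than on each saline date for Arntl and for Dbp, as for 14.6% of genes. Nr1d1 had a log2 fold change of 0.39 ± 0.23, and was called without the LPS libraries of 8 April (0.70, edgeR adjusted p 0.014). Clock was at -0.25 ± 0.13, Dbp at -0.56 ± 0.28, Per3 at 0.38 ± 0.27, Cry1 at 0.38 ± 0.25 and Cry2 at 0.18 ± 0.22 on the same scale. Dbp rested on 2 to 16 counts per LPS library.

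Within the sexes few of the 10 were called between LPS and saline. In males Nr1d2 rose (log2 fold change 0.62 ± 0.17, edgeR adjusted p 0.011) and Dbp fell (-1.08 ± 0.38, adjusted p 0.045), where 19.5% of all genes were called, 11.9% higher and 7.57% lower. With sex from the characteristic Nr1d2 was at 0.47 (adjusted p 0.095). Dbp had 3.00, 4.43 and 9.76 CPM in male LPS libraries (lowest, median, highest of 7). In the 5 male saline libraries it had 9.23, 11.5, 16.6, 19.5 and 6.31 CPM, so that the groups overlapped. This call held when male LPS 7, male saline 1 or 5, female LPS 1 or 5, or female saline 5 or 6 was left out and was lost without any of the other 18 libraries (edgeR adjusted p 0.053 to 0.14). In females 0 of 10 genes were called by edgeR and 0 by DESeq2, where edgeR called 5.06% of all genes, 4.17% higher and 0.892% lower. At an unadjusted p under 0.05 there were 4 of the 10 (edgeR), and 1526 of all 10538 genes. Among these 4, Nr1d1 had a log2 fold change of 0.92 ± 0.32 (edgeR adjusted p 0.10), against -0.15 ± 0.32 in males. The test of sex by LPS called 0 of the 10 by edgeR and 0 by DESeq2, where edgeR called 0.883% of all genes. Of the 10 only Nr1d1 had an unadjusted p under 0.05 (edgeR), as did 2255 of 10538 genes. Its difference of males minus females was -1.08 ± 0.45 on the log2 scale (edgeR adjusted p 0.17).

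In the wider list 6 of the 22 genes tested rose with LPS and 1 fell, where 10.5% of all genes were called higher and 3.95% lower. Noct had the largest change, a log2 fold change of 3.19 ± 0.22. It was followed by Nfil3, a repressor at D-boxes (1.54 ± 0.21), Bhlhe40, a repressor at E-boxes (1.00 ± 0.21), and Nampt (0.99 ± 0.15), all called by edgeR, and Cipc fell by 0.55 ± 0.18. Of 14 genes listed as induced by glucocorticoids, 9 rose and 0 fell in the same comparison (edgeR). Their median log2 fold change was 0.96, against -0.07 over all genes tested. At an unadjusted p under 0.05 there were 11 of the 14, and 2752 of all 10538 genes. Nfkbia, Dusp1, Cebpd, Mt1 and Mt2 were among the listed genes, and what raised the list with LPS was not tested. Of 21 immediate early genes 5 rose and 0 fell, beside the same 10.5% and 3.95% of all genes. Neutrophil markers also moved with LPS, at 273 to 4457 CPM for the 2 in the table of 3 listed, against 12.3 to 261 CPM with saline. Their part, and that of glucocorticoids, in the Per1, Per2 and Nr1d2 results was not tested.

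Sex left 0 of the 10 genes called at any stage by edgeR, where 0.0722% of all genes were called at E18, 0.0433% at P4, at P14 and in P60 saline libraries, and 0.142% in P60 LPS libraries. At P4, P14 and in P60 saline libraries these were 0.0289% higher in males and 0.0144% lower, and with LPS 0.104% and 0.038%. At an unadjusted p under 0.05 there were 2 genes at E18, 0 at P4, 1 at P14, 2 in P60 saline and 1 in P60 LPS libraries. Over all genes the counts in the same order were 2602, 46, 655 and 1340 of 13853, and 1710 of 10538. DESeq2 called 0 in each but E18, where it called Dbp. In the test of sex by age edgeR called 0 of the 10 and 0 of all genes, and DESeq2 called 0 of the 10. Dbp and Nr1d1 had unadjusted p-values of 0.00053 and 0.0081 (edgeR, both adjusted p 0.32), where 1723 of 13853 genes were under 0.05.

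Dbp and Nr1d1 gave the widest sex differences. At E18 Dbp had 8.94, 5.59, 21.4 and 25.6 CPM in male libraries 1 to 4 and 6.87, 7.26 and 6.67 CPM in female libraries 1 to 3. The log2 fold change of males over females was 1.46 ± 0.44 (edgeR adjusted p 0.087). The 2 high libraries titled male were the Ttr-rich ones, and both came from 11 April, a date with no library titled female. Library 4 of these, at 25.6 CPM, is female by characteristic and had no counts of the Y-linked genes. With sex taken from the characteristic the value was -0.32. In P60 saline libraries Nr1d1 had 27.3, 29.7, 49.9, 34.04 and 28.2 CPM in males 1 to 5 and 11.2, 17.4 and 24.6 CPM in females (lowest, median, highest of 7). The sexes did not overlap, as for 0.296% of genes in that direction, at a log2 fold change of 0.87 ± 0.26 (edgeR adjusted p 0.26). By characteristic it was 0.60 (edgeR adjusted p 0.53), and the sexes then overlapped, since female library 6, at 11.2 CPM, counts as male and male library 5, at 28.2 CPM, as female. With LPS Nr1d1 had 15.4, 19.8 and 45.8 CPM in males and 9.55, 35.5 and 49.2 CPM in females, overlapping widely (log2 fold change -0.19 ± 0.31). Dbp also had a positive difference in saline libraries, 0.83 ± 0.34 on the log2 scale, and a negative one at P14, -0.52 ± 0.24, neither called.

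Libraries of the same stage and treatment from different dates show how far these transcripts moved with neither changing. At P14 the 3 dates differed in Per1 (edgeR adjusted p 0.00059) and Cry1 (adjusted p 0.0091), 2 of 10 genes, where 23.5% of the 11649 genes tested were called. Per1 averaged 350 ± 86.6 CPM on 24 February (SD, n = 6), 296 ± 78.1 CPM on 28 February (n = 8) and 537 ± 103 CPM on 14 March (n = 6). On 14 March it had 441, 508 and 712 CPM (lowest, median, highest), against 244, 346 and 496 CPM on 24 February and 202, 292 and 426 CPM on 28 February, so that the last date stood above 28 February with no overlap. Cry1 averaged 57.8 ± 5.45 CPM on 24 February (SD, n = 6), 42.5 ± 8.27 CPM on 28 February (n = 8) and 52.9 ± 6.37 CPM on 14 March (n = 6), and was thus lowest on the middle date. Adjusted p-values over the alternatives stayed at or below 0.0031 for Per1 and 0.028 for Cry1.

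The other P14 levels gave no call by date, among them Nr1d1 (edgeR adjusted p 0.27), Arntl (0.27) and Dbp (0.44). Arntl averaged 22.2 ± 1.17 CPM on 24 February (SD, n = 6), 28.6 ± 8.61 CPM on 28 February (n = 8) and 18.9 ± 5.70 CPM on 14 March (n = 6), so that its order of dates was the reverse of that of Per1. Among 22 immediate early genes 17 differed by P14 date, as did 6 of 13 glucocorticoid-induced genes and 23.5% of all genes tested. So did 10 of 23 genes of the wider list, Bhlhe41 (edgeR adjusted p 3.9e-05) and Noct (0.00012) first. Whether hour of collection, handling or cell state moved with these dates was not tested.

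Across the 3 dates of P60 LPS libraries 0 of 9 genes tested were called by edgeR, where 0.881% of all genes were, and DESeq2 called 0. Per1, Nr1d1 and Nr1d2 had unadjusted p-values of 0.0098, 0.010 and 0.0072 (edgeR), where 1269 of 9762 genes were under 0.05. Dbp was too low to be tested there. Per1 averaged 300 ± 141 CPM on 8 April (SD, n = 5), 268 ± 105 CPM on 9 April (n = 4) and 527 ± 62.3 CPM on 10 April (n = 4), and Nr1d1 averaged 20.2 ± 12.7, 27.2 ± 11.5 and 43.7 ± 6.37 CPM on the same dates (SD). On 10 April Per1 had 476, 476, 551 and 604 CPM and Nr1d1 had 45.4, 49.2, 34.6 and 45.8 CPM, the same libraries in the same order. On 8 April female library 3 was at 518 CPM of Per1 and 42.1 CPM of Nr1d1, the highest of its date in both; without it both genes were called (edgeR adjusted p 0.048 and 0.043).

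In P60 saline libraries 0 of 10 genes and 0 of 12057 genes in all were called between dates by edgeR, with 2778 genes at an unadjusted p under 0.05. Per1, the member among them (unadjusted p 0.0048, adjusted p 0.10), had 306 and 232 CPM on 27 March, 154 to 405 CPM in 6 libraries of 31 March, and 51.1, 161, 127 and 153 CPM on 3 April. DESeq2 called it, and none of the other 9 (adjusted p 0.027). The lowest value was that of Ttr-rich female library 6, but the remaining 3 libraries of 3 April, at 127 to 161 CPM, also lay at the low end. The date means of Per1 ran from 268 to 527 CPM in LPS libraries and from 123 to 269 CPM in saline libraries, so that they met at 9 April with LPS and 27 March with saline.

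**Figure D3:**
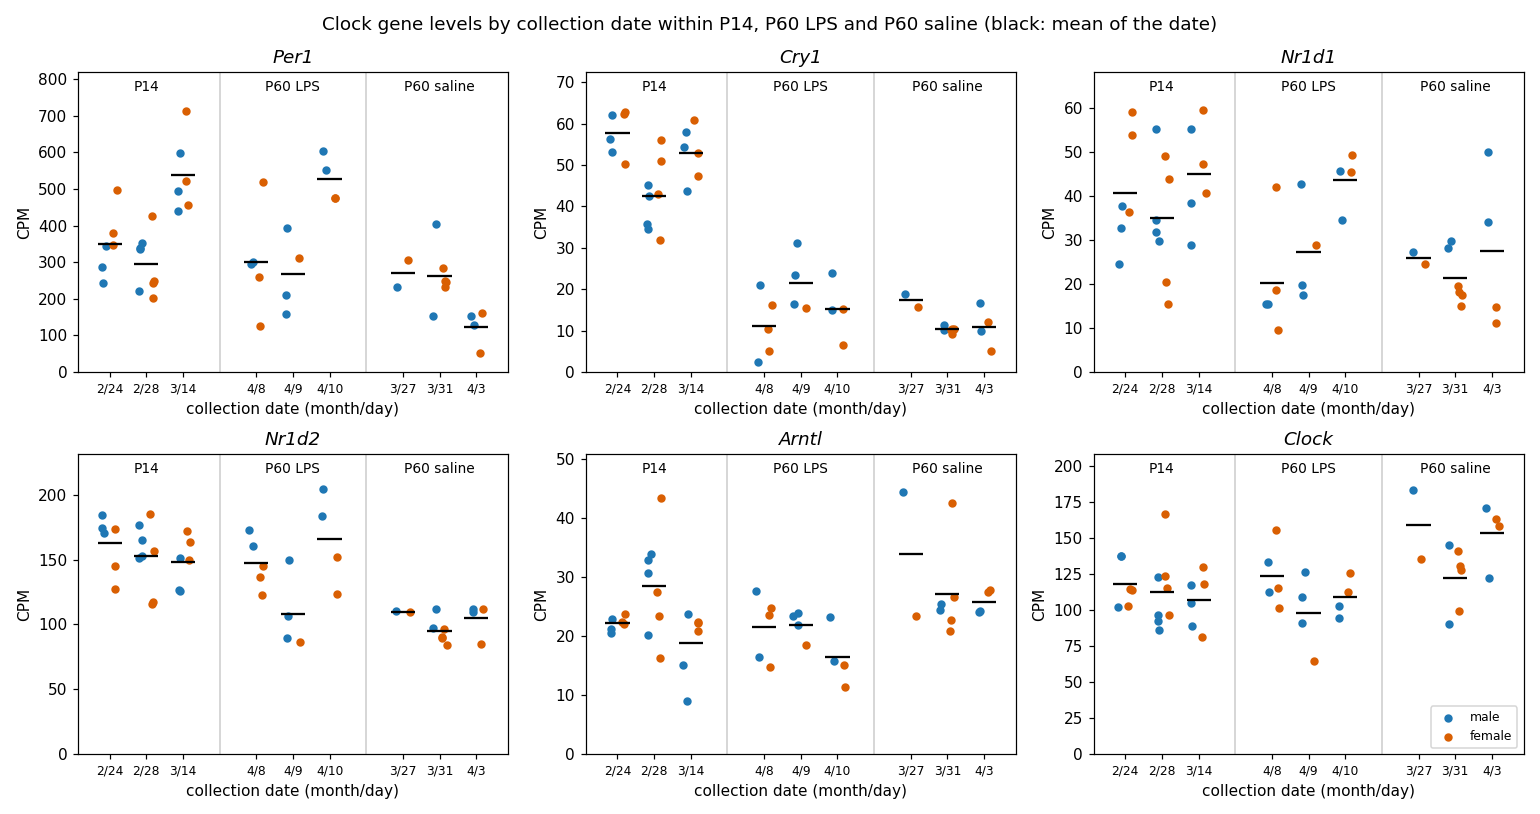
Level in CPM (linear axes from 0) of 6 clock genes in every library of P14, P60 LPS and P60 saline by collection date (month/day), with males in blue and females in orange and the mean of each date as a black line. Per1 stands highest on 3/14 within P14 and on 4/10 within P60 LPS, at means of 537 and 527 CPM, and lowest on 4/3 within P60 saline, at 123 CPM.

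In a running clock Arntl and its targets alternate, and their relation across libraries was computed for 9 genes in P14 (n = 20), P60 LPS (n = 13) and P60 saline (n = 12) libraries. By Pearson or Spearman, 0 of the 27 relations passed after Benjamini-Hochberg adjustment (two-sided permutation tests), and 2 Pearson values had an unadjusted p under 0.05. Both were positive and at P14, those with Per3 (Pearson r 0.47, permutation p 0.037, adjusted p 0.51; Spearman rho 0.58, permutation p 0.0085, adjusted p 0.23) and Nr1d2 (r 0.47, permutation p 0.038, adjusted p 0.51; rho 0.16, permutation p 0.49, adjusted p 0.87). Without the 2 libraries farthest from the Arntl median, r was 0.65 for Per3 and 0.26 for Nr1d2. Within the 3 P14 dates r was 0.21, 0.47 and 0.81 for Per3 and -0.57, 0.61 and 0.82 for Nr1d2.

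With Per1 r was -0.40 at P14 (rho -0.26), -0.40 with LPS (rho -0.37) and 0.08 with saline (rho -0.13), with adjusted permutation p-values of 0.56, 0.76 and 0.91 for r and 0.74, 0.74 and 0.87 for rho. With Nr1d1 it was -0.19, -0.26 and -0.08 in the same groups (rho -0.08, -0.35 and -0.20), and with Dbp 0.28, 0.03 and -0.06 (rho 0.26, 0.21 and -0.04), with adjusted permutation p-values of 0.76 to 0.91 for r and 0.74 to 0.94 for rho. The P14 value of Per1 did not hold within dates, where r was 0.58, -0.33 and 0.53 on 24 February, 28 February and 14 March. Within the same dates r was 0.78, -0.48 and 0.85 for Nr1d1 and 0.36, 0.07 and 0.35 for Dbp. Of the P60 dates only that of 31 March in saline held at least 6 libraries, with r of 0.21 for Per1, -0.08 for Nr1d1 and 0.01 for Dbp.

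After the mean of each sex, stage and treatment group was subtracted, the 10 genes were compared over all 60 libraries, as a description with no test since libraries share dates and depth. The closest pairs were Nr1d2 with Clock (Pearson r 0.72 of log2 CPM) and Per1 with Nr1d1 (0.63). Without the 3 Ttr-rich libraries (57 left) these were 0.59 and 0.59, whereas Per2 with Clock went to 0.13, against 0.51 with all libraries. Nr1d1 with Cry2 stood at 0.49 both ways. With all libraries the lowest value of Arntl was -0.16, with Per1, it was at -0.08 with Nr1d1 and at 0.00 with Dbp, and its highest was 0.27, with Nr1d2. Without the Ttr-rich libraries Arntl stood at -0.25 with Per1, -0.14 with Nr1d1 and 0.21 with Nr1d2.

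**Figure D4:**
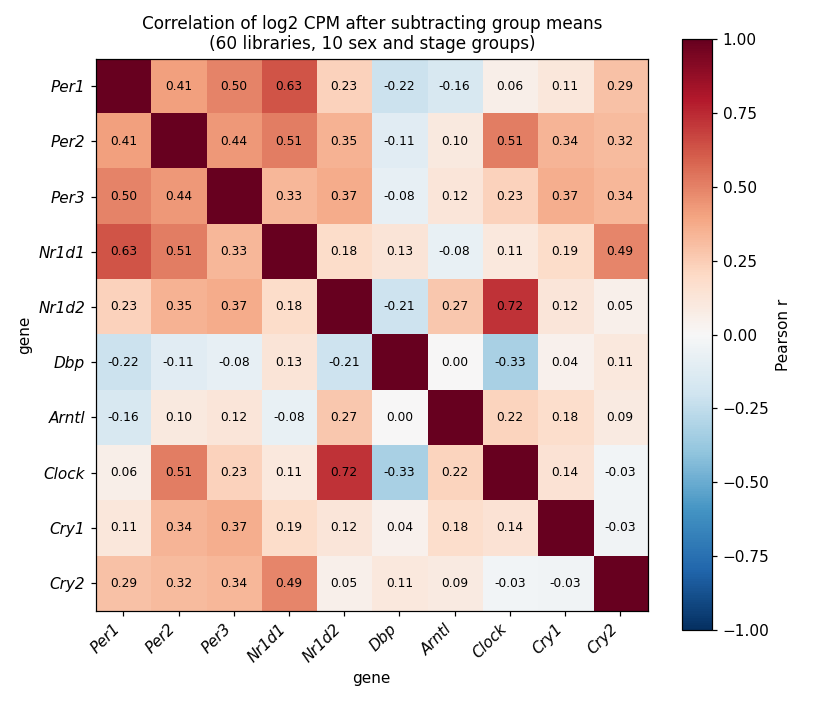
Pearson correlation between pairs of clock genes of log2 CPM after subtracting the mean of each of 10 sex, stage and treatment groups, over 60 libraries (red positive, blue negative). The strongest cell is Nr1d2 with Clock at 0.72, followed by Per1 with Nr1d1 at 0.63, and the Arntl row lies between -0.16 and 0.27.

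Over the same residuals and 9758 genes, those most like Arntl were Fam171b (r 0.62), Agtpbp1 (0.60), Nqo2 (0.56), Fzd3 (0.56) and Mbp (0.55), and those least like it were Tor3a (-0.54), Cdk5rap1 (-0.49), Atp6v0a2 (-0.49), Tbc1d22a (-0.45) and Btg2 (-0.45). Nr1d1 was most like Zfp523 (0.72), Dctn1 (0.71), Tmem132a (0.71), Csnk1g2 (0.70) and Ptov1 (0.70) and least like Stt3a (-0.76), Rab11a (-0.75), Ppt1 (-0.69), Tm9sf2 (-0.68) and Tram1 (-0.68). Per1 ranked 53rd among the 9758 genes by likeness to Nr1d1 and Arntl ranked 7122nd, while Clock ranked 2284th by likeness to Arntl.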

How the data were processed

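RNA sequencing counts of 60 libraries were analysed. The authors deposited 1 table of whole-number read counts per transcript, not normalized; CASAVA 1.8.2, edgeR and the mouse build mm9 are named per the submitters' processing notes, and which aligner and counter were used is not stated there or in the labels. From its 28644 rows 1 was kept for each of 22869 symbols, the row marked as best or else the one with the highest total. For Arntl the marked row had 2466 counts over all libraries and the highest 2550. CPM was computed over all genes so chosen. Promoters came from RefSeq (GRCm38.p6), and no coordinates of the counts' build were used.

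Log2 fold changes, standard errors and p-values came from the quasi-likelihood F test of edgeR 4.0.16 (R 4.3.3; TMM, filterByExpr, robust), with Benjamini-Hochberg adjustment over all genes tested and a threshold of 0.05. One fit held 47 libraries of 8 sex and stage groups, another 25 libraries of 4 sex and treatment groups at P60, and dates were tested within a stage and treatment with sex as a term. DESeq2 1.42.0 and limma 3.58.1 were alternatives. The scripts were tested on simulated data. The 10 genes are all named, and of the wider clock list those called, up to 4 with the smallest p in each direction, of which 1 is not reported here; the 5 genes most and least like Arntl and Nr1d1 had a mean of at least 10 CPM. The members and lists were chosen with earlier results of these data known.

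Same-numbered male and female libraries shared collection dates at P4 (4 of 4 pairs, correlations of 0.406 to 0.629), and at P14 (10 of 10 pairs, 9 with a correlation over 0.1, the lowest -0.277), so by date the numbers pair the sexes at both stages; the other groups' numbers were not taken as pairs. No library was a copy of another in its sex, stage and treatment group (178 pairs), and pairs across groups were not checked for copies. Limits from a count of 0 (3 counts) cover counting error only.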

Additional observations from a re-analysis of the deposited data

Results flagged for a closer look

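In 9 of 90 tests, 1 for each clock gene in each group of 4 to 10 libraries, 1 library lay far from the rest. Chance alone marks about 1 in 20 such tests where values follow a normal curve, and the genes here share their libraries. Female P14 library 6 was extreme in both directions. It had the highest Arntl of its sex and stage, 43.4 CPM with the next library at 27.6 CPM, and the lowest Per2, 11.4 CPM with the next at 23.02 CPM. Arntl was also high in male saline library 1, at 44.5 CPM with the next male at 25.4 CPM, and in female saline library 3, at 42.6 CPM with the next female at 27.8 CPM. Per3 was at 3.55 CPM in male LPS library 2, where the next male had 12.2 CPM, and at 0 CPM in female saline library 6, where the next female had 10.1 CPM; that female library is one of the 3 rich in Ttr. Nr1d2 was lowest among saline males in library 2, at 97.6 CPM, with the other 4 between 110 and 112 CPM. Cry1 was highest among P4 females in library 1, at 42.1 CPM with the next at 29.7 CPM. Cry2 was highest among LPS females in library 3, at 26.7 CPM with the next at 16.5 CPM, the same library that had the highest Per1 and Nr1d1 of 8 April. The part of these libraries is covered by leaving each out of the comparisons between stages, of LPS with saline and between dates. Those of P14 were not left out between stages. The tests of males against females, sex by age and sex by LPS were not repeated without any of these libraries.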

How the results depend on the processing

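The number of clock genes called at the developmental steps stayed within 1.5 times its value under every alternative but 1, and 0 results changed sign as a call. With 1 mean per collection date and an exact permutation test over dates, 3 genes passed at P4 over E18, 3 at P14 over P4 and 2 at P60 saline over E18, where the smallest p possible was 0.0286. Leaving out single libraries gave 4 to 6 calls at P4 over E18, 5 to 7 at P14 over P4, 8 to 10 at P60 saline over P14 and 8 at P60 saline over E18. The 3 calls for LPS over saline were less stable, with 1 left under the replicate block, with date as a random block, without the saline libraries of 3 April, and without the LPS libraries of 10 April, and 1 to 3 without single libraries. In females 1 gene, Nr1d2, was called with sex from the characteristic, against 0, and 0 to 1 without single libraries. In males 1 of the 2 calls was left without the filter on low counts and with the highest row, 0 under the replicate block, and 1 to 3 without single libraries. DESeq2 called 1 gene for sex at E18 (Dbp) and 1 for date in saline libraries (Per1). For date in LPS libraries 2 genes (Per1 and Nr1d1) were called without the filter on low counts, and 0 to 2 without single libraries. Date calls stayed at 2 for P14 and 0 for saline without single libraries. The cause was not tested. Added as a block, the replicate number gave 6, 6, 8 and 8 calls at the stage steps in the order above; Per1 was then called at P4 over E18 (log2 fold change 0.69, edgeR adjusted p 0.013), and at P4 and P14, where the numbers pair the sexes by date, no call for sex changed. Library totals without TMM and leaving out libraries in the date comparisons were chosen after seeing the data. Among values of single genes, 3715 were counted as unchanged, 82 lost a call, 47 gained one and 22 moved by more than their error. The unchanged include uncalled values that changed sign by less than their error, and date tests, which have no direction. They also include correlations with Arntl and some date means, which were judged by their error alone. Dbp rested on the fewest counts in LPS libraries by median, 6 per library.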
